A study of Mus musculus with 16 samples.

Results

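Very long introns were defined here as rows of the deposited mouse intron count table that span at least 50000 bp and hold a mean of at least 10 counts over the 16 libraries. These introns were thus chosen by length and by mean intron count, and by no comparison between groups. The rule kept 1487 of the 200168 introns in the table, out of 2988 of that length, and they belong to 1014 genes. For each intron the count was set against the summed exon-bin count of the same gene, and this intron-to-exon ratio was compared between genotypes. The cells were mHiPPoE-2, a transformed line from embryonic mouse hippocampus with the strain label Crl:CFW(SW)-024, grown in DMEM with 10% FBS, and total RNA was sequenced after removal of ribosomal RNA. The 16 libraries fall into 8 groups of 2. METTL3 KO was a single clonal isolate that lacks the m6A methyltransferase subunit METTL3, and WT was the parental line. KO rescue 1 and 2 were RBM45 knockouts given an F-HA-tagged RBM45 whose guide RNA site was mutated, RBM45 KO 1 and 2 were 2 knockout clones, and control 1 and 2 were clonal isolates that had received Cas9 without a guide RNA. The control columns of the table were identified only because every other column matches another group, and the clone numbers of controls and rescues are names that link no clone to another. Nothing in the labels says that the 2 libraries of a group came from separate cultures, so p-values over libraries measure only the spread between these libraries.

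Introns are transcribed with the rest of a gene and then removed by the spliceosome, which joins the exons on either side. A very long intron takes a polymerase a long time to cross, so at any moment a large part of the unfinished RNA of such a gene lies in it, and its reads in total RNA reflect both synthesis and removal. Very long introns are typical of genes expressed in neurons, among them genes for synaptic scaffolds and adhesion proteins, and several lie at common fragile sites, where replication and transcription meet over great distances. RBM45 is an RNA-binding protein of the nervous system that is reported to bind m6A-marked RNA, and METTL3 is the catalytic subunit that writes that mark.

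The exon junctions left when the introns of the main results are spliced out are printed here because they tie each named intron to an exact pair of exons. The last 15 bases of the upstream exon are in lower case and the 15 bases of the downstream exon are in capitals, read 5′ to 3′ from GENCODE release 21 mouse transcripts on GRCm38, and these introns were chosen after their values were seen. The Ext1 intron 1 spans chr15:53107572-53344401 on the minus strand, Mecom intron 1 spans chr3:30238322-30509429 on the minus strand, Wwox intron 8 spans chr8:114712252-115351637 on the plus strand, and Magi2 intron 1 spans chr5:19227590-19678652 on the plus strand. Rims2 intron 1 spans chr15:39198539-39274975 on the plus strand, Macf1 intron 1 spans chr4:123554366-123683969 on the minus strand, and Shroom3 intron 1 spans chr5:92683832-92780752 on the plus strand. Pde4d introns 1, 2 and 3 follow each other on the plus strand, at chr13:108654266-108860074, chr13:108860208-109032467 and chr13:109032698-109740386.
Ext1 intron 1: caccgagtatgagaaATATGATTATCGGGA
Mecom intron 1: ggaaactggccacaaGTAATGAGTGTGCCT
Wwox intron 8: ttcaccaagtccatgCAACAGGGAGCTGCT
Magi2 intron 1: agtgtgtcaagcaagGAGGAATTGTTGATA
Rims2 intron 1: gcagtccgtgctcaaGATCAAAGAAGAACA
Macf1 intron 1: tggtccgagtcgctgATGAGCGGGACCGAG
Shroom3 intron 1: ttaatcatttccaagATTGAAGAAGGGGGC
Pde4d intron 1: agcctgtcttgtaagCATTTCAGTTGCCTC
Pde4d intron 2: tctcggagcaaaagtGCCTCTGAGGAAACA
Pde4d intron 3: tgcagactcaagtggTTTCGATGTGGACAA

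The very long introns had a median length of 76981 bp, with quartiles of 59962 and 113514 bp and a maximum of 707689 bp. The longest were Pde4d intron 3 (707689 bp, a mean of 566 counts per library), in a cAMP phosphodiesterase gene, and a Cadm2 intron of 666870 bp with a mean of 12.8 counts, in a synaptic adhesion gene. Next came Wwox intron 8 (639386 bp, 379 counts), in an oxidoreductase gene at a common fragile site, an intron listed under 1700006F04Rik and Hs6st3 (610166 bp, 10.6 counts) and a Lrmda intron (550520 bp, 43.9 counts). The mean count was 101.5 at the median, with quartiles of 40.5 and 209.5. By the rule on length, the last intron inside was in 2010111I01Rik, where end minus start was 50005 bp, and the first outside was in Xxylt1, at 49978 bp. By the rule on counts, the last inside was a Fhit intron with a mean of 10.125 counts and the first outside was in Zmat4, with 9.9375. Of the 1487 introns, 51 had a mean under 10 without the group in which they were highest.

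Most genes, 730 of 1014, had a single very long intron, 284 had 2 or more and 21 had 5 or more. Pard3b, a cell polarity gene, had 8, and Magi2, a synaptic scaffold gene, and Cdh13, an adhesion receptor gene, had 7 each. Of the 1336 very long introns that matched a GENCODE transcript, 37.4% were intron 1 of their transcript, against 19.8% of the 21681 other introns tested that matched. Exon bins of the same gene lay wholly inside 871 of the 1487. Exons of another annotated gene lay inside 794 of the 1487, and in 110 of them that gene was protein coding. Reads of those genes cannot be told apart from reads of the intron where the strand is not known, since the kit was not directional although the counting was set to the same strand. The introns of Filip1l and Cmss1 held the most counts, with means of 329000 and 310754. The Filip1l intron lies wholly inside the Cmss1 intron on the opposite strand, so the counts of the pair cannot be told apart.

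A test needed at least 10 exon-bin counts on average, which 1367 of the very long introns met, in 917 genes. Of the 120 others, 19 had no exon rows and 101 had too few exon counts. Very long introns held more counts each than the other introns tested, with a median of 108 against 19.9, but fewer per kilobase, with 1.28 against 4.14. Their ratio was high, with a median of 50.8 intron counts per 100 exon-bin counts and quartiles of 26.3 and 94.6, against a median of 4.40 in the other introns tested. In 329 of the 1367 the mean ratio over libraries was above 100 intron counts per 100 exon-bin counts. These ratios were divided by the library factor described below.

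Total counts over genes ranged between 7193908 and 18751324 per library, and those over introns between 1945130 and 4251417. Without 4 introns of over 10000 mean counts, very long introns took 15.9% to 21.6% of the intron counts. Mettl3 was at 3.53 ± 0.254 CPM (counts scaled to the library's gene total adjusted by a TMM factor) in METTL3 KO and 10.2 ± 2.03 CPM in WT (SD, n = 2 each). Rbm45 was at 23.1 ± 2.05 CPM in KO rescue, 8.04 ± 2.08 CPM in RBM45 KO and 14.7 ± 1.90 CPM in controls (SD, n = 4 libraries each). The neuronal label was checked against 10 marker genes, of which 4 reached 1 CPM anywhere; Dcx, Nefl, Rbfox3, Snap25, Stmn2 and Syt1 did not. The 5 mesenchymal markers summed to between 1483 and 5121 CPM, lowest in METTL3 KO at 1483 and 1536 CPM, against 2472 and 2552 CPM in WT. Vim, Fn1 and Acta2 were lower in METTL3 KO, while Col1a1 averaged 343 CPM in METTL3 KO and 105 CPM in WT and Col1a2 2.86 CPM in METTL3 KO and 0.970 CPM in WT (n = 2 each), and their part in the results was not tested.

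Relative to the median intron of their library, very long introns stood above their mean over libraries in METTL3 KO and KO rescue and below it in RBM45 KO. The ratios of a library were divided by a library factor, the library's median ratio, and are called scaled ratios. The median of the 1367 very long introns on the centred log2 scale was 0.099 and 0.077 in METTL3 KO, against -0.118 and 0.004 in WT. It was 0.046 and 0.055 in KO rescue 1, 0.204 and 0.059 in KO rescue 2, -0.061 and -0.053 in RBM45 KO 1, -0.136 and -0.176 in RBM45 KO 2, -0.137 and 0.035 in control 1, and -0.074 and 0.171 in control 2. All 4 KO rescue libraries therefore lay above all 4 RBM45 KO libraries, while the 4 control libraries overlapped with both. For the 2520 introns under 1000 bp the same medians were -0.234 and -0.306 in METTL3 KO, against 0.312 and 0.132 in WT. They lay between -0.398 and -0.039 in KO rescue, between 0.108 and 0.307 in RBM45 KO and between -0.111 and 0.309 in controls. These values of short introns follow the library factor by which the ratios were divided: without the division, the medians of introns under 1000 bp lay between -0.020 and 0.072 in all 16 libraries. Those of very long introns then lay at 0.375 and 0.432 in METTL3 KO, against -0.403 and -0.121 in WT, between 0.112 and 0.674 in KO rescue, between -0.491 and -0.155 in RBM45 KO and between -0.402 and 0.316 in controls. The library factor differed between genotypes, with a mean log2 value of 0.32 in METTL3 KO and -0.20 in WT, and of 0.21 in KO rescue, -0.20 in RBM45 KO and -0.07 in controls. Counts on a few gene rows (CT010467.1 with AY036118, Gm42418 and Gm23935) made up 37.6% of gene counts in METTL3 KO and 44.2% in WT. They made up 37.6% in KO rescue, 46.3% in RBM45 KO and 44.7% in controls, and their part in the pattern was not tested.

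**Figure D1:**
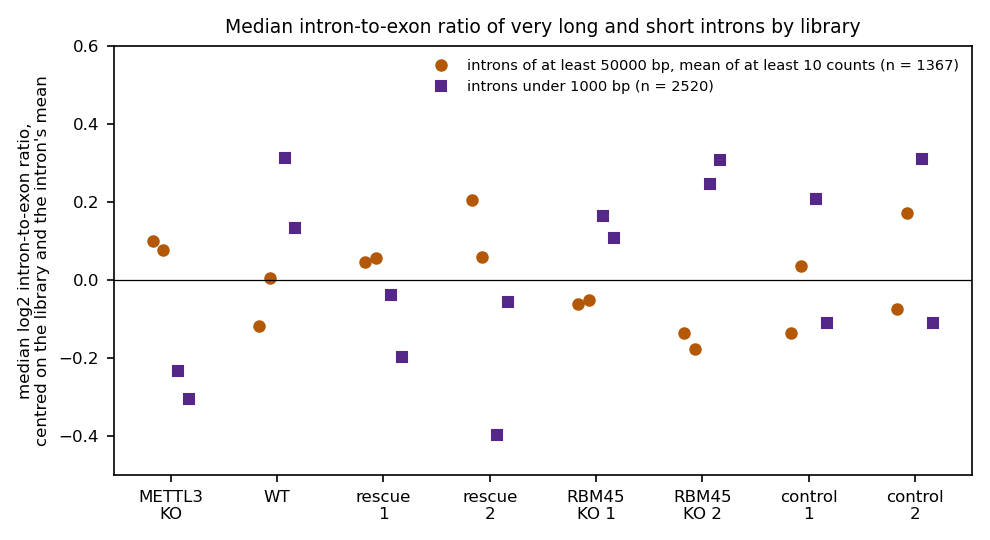
Median log2 intron-to-exon ratio (y axis, centred on each library and on each intron's mean) of 1367 very long introns (circles) and 2520 introns under 1000 bp (squares) in each of the 16 libraries, by group (x axis). Circles lie above 0 in METTL3 KO and KO rescue and below 0 in RBM45 KO, and squares lie on the other side of 0 in these groups, where division by the library factor puts them.

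Sorted by length, the median change of very long introns lay away from 0 in the plain ratio and that of introns under 1000 bp near 0. Between METTL3 KO and WT the median log2 change of the plain ratio was 0.03 for introns under 1000 bp, 0.66 for those from 50000 to under 100000 bp and 0.63 for those of 100000 bp or more, against 0.55 over all introns. Between KO rescue and RBM45 KO it was 0.03, 0.58 and 0.72 in those classes, against 0.42 over all introns. Between RBM45 KO and controls it was -0.02, -0.28 and -0.39, against -0.19 over all introns, and between KO rescue and controls 0.02, 0.29 and 0.31, against 0.22. The scaled ratio takes the shift over all introns out, so that short introns then lie on the other side of 0. Between METTL3 KO and WT the median log2 change of the scaled ratio was -0.48 for introns under 1000 bp, 0.14 for those from 50000 to under 100000 bp (n = 979) and 0.13 for those of 100000 bp or more (n = 388). Between KO rescue and RBM45 KO it was -0.38, 0.17 and 0.30 in those classes. Between RBM45 KO and controls it ran the other way, with 0.17, -0.09 and -0.20, and between KO rescue and controls it was -0.20, 0.07 and 0.09. Clones of 1 genotype differed by as much in places, with 0.03, 0.08 and 0.20 between control 2 and control 1, 0.15, -0.06 and -0.15 between RBM45 KO 2 and RBM45 KO 1, and -0.11, 0.06 and 0.09 between KO rescue 2 and KO rescue 1. The RBM45 comparisons share libraries with each other, so their medians are not independent. Introns from 10000 to under 50000 bp had a median scaled change of 0.14 between METTL3 KO and WT, like that of very long introns. For that class it was 0.10 between KO rescue and RBM45 KO, -0.04 between RBM45 KO and controls and 0.05 between KO rescue and controls. Between controls and WT it was 0.07, the same as in the 2 longest classes. Among very long introns, intron 1 had a median change of 0.24 between KO rescue and RBM45 KO (n = 462) and later introns one of 0.17 (n = 718). The medians are descriptions of these libraries with no test over introns.

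**Figure D2:**
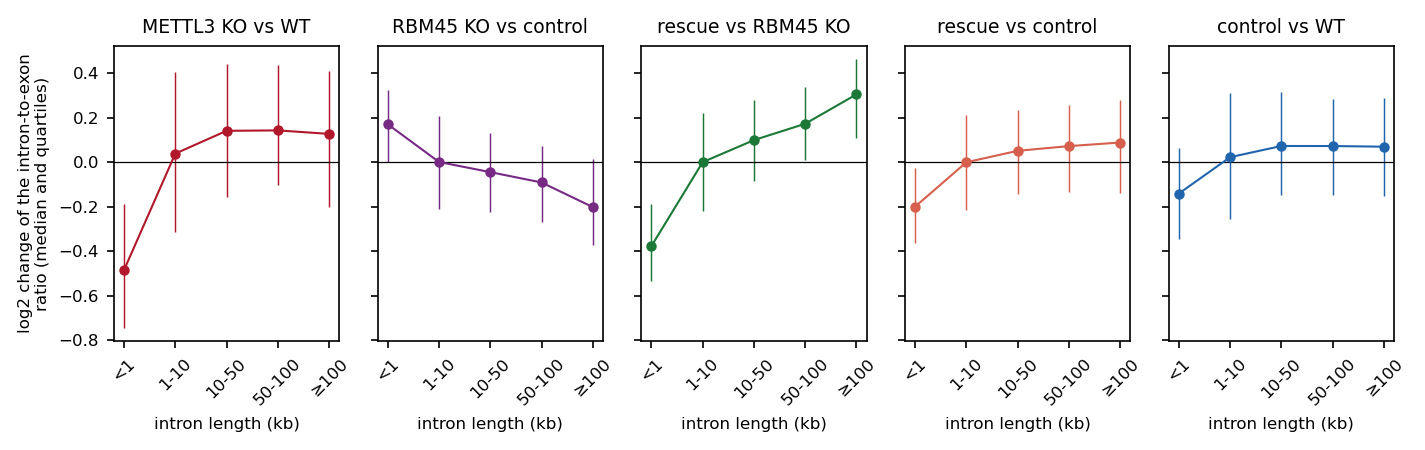
Median log2 change of the scaled intron-to-exon ratio (y axis, points; bars are the quartiles over introns) against intron length in kb (x axis) for 5 comparisons. The 2 longest classes lie above 0 between KO rescue and RBM45 KO, at 0.17 and 0.30, and below 0 between RBM45 KO and controls, at -0.09 and -0.20.

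The first comparison asked which very long introns differ in cells without METTL3. Of the 1367 tested, 28 passed, 19 with a higher and 9 with a lower ratio in METTL3 KO than in WT, by edgeR's quasi-likelihood test at a Benjamini-Hochberg adjusted p under 0.05 over all 25658 introns. Over all introns 0.491% passed, 0.222% higher and 0.269% lower. Very long introns had more counts each than other introns, and the part of that in the shares was not tested. The median change was 0.14, against 0.03 over all introns, and 882 of the 1367 lay above 0; it was 0.21 without WT library 2 and 0.10 without WT library 1. Since METTL3 KO is 1 clone, clone and genotype cannot be told apart, and in bulk RNA fewer cells of a type and less RNA per cell cannot be told apart either. With the plain ratio, which is not divided by the library factor, 12 rose and 0 fell, against 0.214% higher and 0.00779% lower over all introns.

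Rims2, a presynaptic active-zone scaffold, rose in METTL3 KO in each of its 3 very long introns. Intron 1 (76437 bp, no other gene inside) had scaled ratios of 37.1 and 37.0 intron counts per 100 exon-bin counts in METTL3 KO, against 13.1 and 15.3 in WT, a log2 change of 1.36 ± 0.22 (SE, edgeR adjusted p = 7e-05). Introns 2 and 3 changed by 1.37 and 1.25 (edgeR adjusted p = 0.0145 and 0.000583). The 2 genotypes did not overlap in any of the 3. The intron 1 ratio was not confined to METTL3 KO, however, since it lay at 26.9 and 30.7 in control 2, against 11.3 and 15.3 in control 1 (log2 change 1.10, edgeR adjusted p = 0.000204).

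Celf2, which encodes an RNA-binding regulator of alternative splicing, rose in some of its introns and not in others. An intron of 77527 bp (chr2:6884852-6962378) had scaled ratios of 32.6 and 36.5 in METTL3 KO, against 13.8 and 15 in WT, a log2 change of 1.26 ± 0.21 (SE, edgeR adjusted p = 0.000109). The neighbouring intron upstream, of 118692 bp, changed by 1.05 (edgeR adjusted p = 0.00142). Further downstream, the 163238 bp intron was at 67.5 and 67.3 in METTL3 KO, against 54.4 and 59.4 in WT, and did not pass (log2 change 0.24 ± 0.19), nor did the 57219 bp intron (0.13 ± 0.23). The difference between the introns of Celf2 was itself not tested. A higher ratio was not confined to METTL3 KO, since 2 very long introns of Celf2 were also called between control 2 and control 1. Both were higher in control 2. The 77527 bp intron holds exons of 4 non-coding genes, 1 of them antisense.

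Other introns that rose lie in genes of varied function. Chchd3 (75825 bp), a gene for a mitochondrial cristae protein, was at 48.3 and 48.6 in METTL3 KO, against 18.9 and 27.7 in WT (log2 change 1.03, edgeR adjusted p = 0.00795). Abcg2 (58529 bp), a drug efflux transporter gene, was at 24.2 and 15.5 in METTL3 KO, against 3.41 and 3.62 in WT (log2 change 2.39, edgeR adjusted p = 0.00692), on only 3 and 7 intron counts in WT. Palld, a gene for an actin-associated protein, rose by 0.99 and Gbf1, a gene for a Golgi exchange factor, by 1.00 (edgeR adjusted p = 0.00706 and 0.0095). The intron of 2610203C22Rik (55678 bp) was at 511 and 521 in METTL3 KO, against 101 and 74.3 in WT (log2 change 2.64 ± 0.42, SE, edgeR adjusted p = 4.02e-05). It and the risen intron of Xpo7, a nuclear export receptor gene (log2 change 1.05, edgeR adjusted p = 0.00367), hold exons of protein-coding genes, Adhfe1 and Vxn in the one and Dok2 in the other.

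Camk1d, a calcium/calmodulin-dependent kinase gene, fell in 1 of its 3 very long introns. Its intron 3 (82942 bp) held 7256 and 11413 counts in METTL3 KO, against 10890 and 12840 in WT. The scaled ratios were 7220 and 4288 in METTL3 KO, against 13533 and 15908 in WT, a log2 change of -1.45 ± 0.26 (SE, edgeR adjusted p = 0.000583). Introns 1 and 2 of Camk1d, with means of 105 and 101 counts, had log2 changes of -0.45 and -0.39 and did not pass. Intron 3 thus held far more counts than its sister introns, and whether its reads came from Camk1d RNA was not tested. The gene rows of CT010467.1 with AY036118, Gm42418 and Gm23935 made up 37.6% of gene counts in METTL3 KO and 44.2% in WT. Their part in the fall of intron 3 was not tested. Filip1l fell by 2.01 on the log2 scale (edgeR adjusted p = 7.19e-05), while the Cmss1 intron that encloses it had a log2 change of -0.91 and did not pass (edgeR adjusted p = 0.207). Exon-bin counts of Filip1l were 248 and 542 in METTL3 KO, against 117 and 232 in WT. Ulk4, a gene for a kinase-like protein, was at 7.98 and 7.66 in METTL3 KO, against 22.1 and 13 in WT, in an intron of 78203 bp with no other gene inside (log2 change -1.13, edgeR adjusted p = 0.00795). That of Dis3l2, an exoribonuclease gene, was at 105 and 155 in METTL3 KO, against 342 and 304 in WT (log2 change -1.28, edgeR adjusted p = 0.0125). The introns of Ptrh2, Txlng and Zfp950, with log2 changes of -1.13, -1.11 and -1.55, hold exons of the coding genes Cltc and Dhx40, Rbbp7, and Grk5. Dis3l2 intron counts before scaling were 125 and 290 in METTL3 KO, against 104 and 159 in WT. Its exon-bin counts were 98 and 146 in METTL3 KO, against 37 and 57 in WT. Zfp950 was alike, with intron counts of 100 and 175 in METTL3 KO, against 50 and 79 in WT. Its exon-bin counts were 82 and 154 in METTL3 KO, against 17 and 37 in WT.

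**Figure D3:**
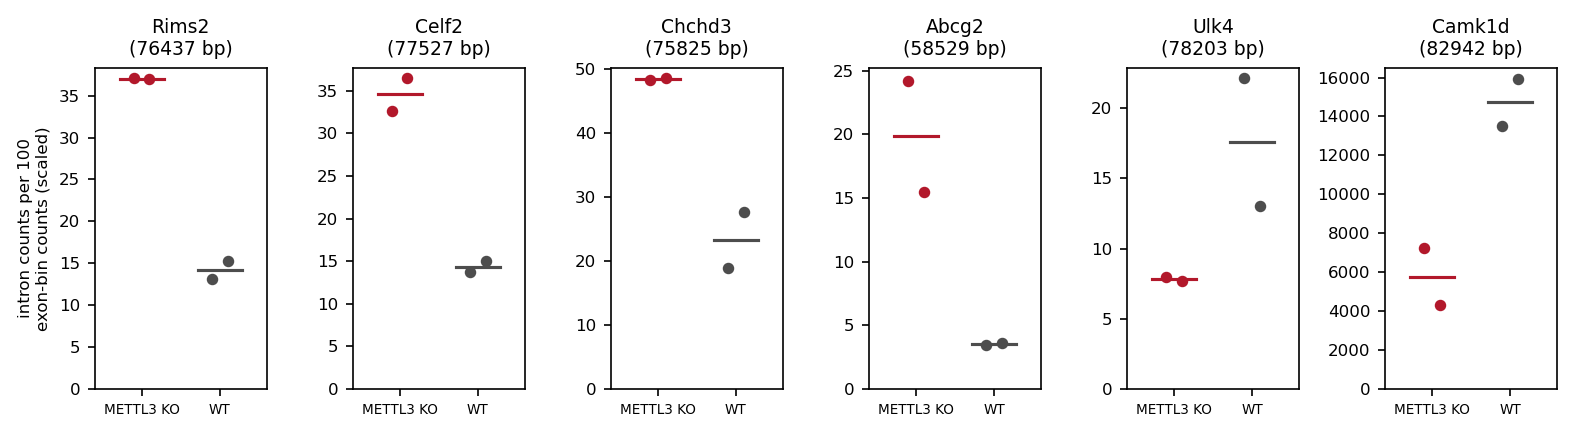
Scaled intron-to-exon ratio (y axis, intron counts per 100 exon-bin counts, linear from 0) of 6 very long introns in the 2 METTL3 KO and 2 WT libraries (points; lines are the means of 2). The METTL3 KO points lie above the WT points for Rims2, Celf2, Chchd3 and Abcg2 and below them for Ulk4 and Camk1d intron 3.

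These METTL3 calls rest on 2 libraries a side. Leaving out WT library 1 left 7 calls, leaving out METTL3 KO library 1 left 10, leaving out METTL3 KO library 2 left 11 and leaving out WT library 2 left 29. Rims2 intron 1 and the 77527 bp Celf2 intron passed in all 4 of these fits, 2610203C22Rik and Camk1d in 3, and Chchd3, Abcg2, Ulk4 and Xpo7 in 1 each. DESeq2 called 1 of the introns, that of 2610203C22Rik (adjusted p = 0.0255).

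The second comparison asked what differs without RBM45. The 6 clones were compared as sums of their 2 libraries, so that the spread is the one between clones. Of 1367 very long introns, 6 passed, 2 higher and 4 lower in RBM45 KO than in controls, against 0.0663% of all introns, 0.0429% higher and 0.0234% lower. With the plain ratio 1 rose and 0 fell, against 0.0117% higher and 0.0039% lower over all introns. The median change was -0.12, against 0.00 over all introns, and 435 of the 1367 lay above 0. It was -0.06 without RBM45 KO 2 and without control 2, -0.15 without RBM45 KO 1 and -0.19 without control 1. The clones differed among themselves. The median was -0.21 between RBM45 KO 2 and control 2, with 15 introns higher and 45 lower, against 0.600% of all introns called. It was 0.00 between RBM45 KO 1 and control 1, with 0 higher and 1 lower, against 0.0234% of all introns. No very long intron was called in all 4 pairs of an RBM45 KO and a control clone, where 1 of all introns was, 0.0039%.

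Magi2, a scaffold at synaptic and cell junctions, fell in its intron 1 of 451063 bp. The scaled ratio was 467 and 465 in RBM45 KO 1 and 475 and 376 in RBM45 KO 2, against 654 and 841 in control 1 and 1158 and 1373 in control 2, so the genotypes did not overlap. The log2 change was -1.15 ± 0.21 (SE, edgeR adjusted p = 0.0151). KO rescue was at 627, 594, 832 and 710, overlapped with controls, and differed from neither by the test (log2 change 0.67 from RBM45 KO, edgeR adjusted p = 0.162, and -0.48 from controls, edgeR adjusted p = 0.332). The next Magi2 intron, of 229244 bp, had a log2 change of -0.93 between RBM45 KO and controls and did not pass (edgeR adjusted p = 0.0724), and the other 5, which did not pass, had log2 changes between -0.63 and -0.35.

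Cdh13 and Hdac9 were other long genes with a lower ratio. With a filter of a mean of at least 50 counts, 0 very long introns passed in this comparison. Cdh13 intron 1 (221705 bp) was at 119 and 108 in RBM45 KO 1 and 86.6 and 78.3 in RBM45 KO 2, against 122 and 160 in control 1 and 173 and 207 in control 2 (log2 change -0.83 ± 0.16, edgeR adjusted p = 0.0306). In KO rescue, 2 or more Cdh13 introns were called lower than in controls. One of these (chr8:118968194-119095184) was also lower in METTL3 KO than in WT (log2 change -0.86, edgeR adjusted p = 0.0304). The 299037 bp intron of Hdac9, a histone deacetylase gene, was at 43.8 and 37.8 in RBM45 KO 1 and 18.7 and 20.2 in RBM45 KO 2, against 60.6 and 82.1 in control 1 and 160 and 107 in control 2 (log2 change -1.68 ± 0.31, edgeR adjusted p = 0.0151). KO rescue was not back at the control level in Hdac9, at 13.8 and 14.8 in KO rescue 1 and 42.1 and 31.2 in KO rescue 2, and was lower than in controls, with a log2 change of -1.90 (edgeR adjusted p = 0.000726). The ratio of Hdac9 also moved with its exon counts, which were 618 to 1081 in KO rescue and 190 to 640 in RBM45 KO, against 48 to 431 in controls. The other downstream introns of Hdac9, of 61166 to 90904 bp, had log2 changes between -0.26 and 0.20 and did not pass. The next intron upstream (87245 bp) had a log2 change of -1.88 and did not pass (edgeR adjusted p = 0.0557).

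Wdpcp, a ciliary gene, rose in its intron 1 (79855 bp, no other gene inside), with 344, 477, 594 and 308 in RBM45 KO, against 118, 161, 71.3 and 131 in controls, a log2 change of 1.72 ± 0.30 (SE, edgeR adjusted p = 0.0118). Its exon-bin counts were 9 to 19 in RBM45 KO and 44 to 64 in controls, while its intron counts were 40 to 50 in RBM45 KO and 25 to 85 in controls. The remaining calls rest on 1 clone or on few counts. The 240055 bp intron of Arhgap6, a GTPase-activating protein gene, held 0 and 1 counts in RBM45 KO 1 and 202 and 254 in RBM45 KO 2, against 1 and 1 in control 1 and 1 and 3 in control 2. Atp8b1, a lipid flippase gene, held at most 2 exon-bin counts in any control library, and its fitted change was -4.75 ± 0.87 (SE, edgeR adjusted p = 0.0151).

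The count depended on single clones, and shares over all introns were not worked out for the fits without a clone. Without control 1, 40 of the very long introns passed (11 higher, 29 lower). There were 17 calls without RBM45 KO 1, 1 without control 2 and 0 without RBM45 KO 2. Limma called 2, of which Wdpcp was the only one of the 6 named here (adjusted p = 0.000801), and DESeq2 called none of them. In the edgeR fit, 217 of the 1367 lay below an unadjusted p of 0.05, against 1913 of all 25658 introns.

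The third comparison set KO rescue against RBM45 KO. Of 1367 very long introns, 11 passed, 8 higher and 3 lower in KO rescue, against 0.168% of all introns, 0.0429% higher and 0.125% lower. The median change was 0.20, against 0.01 over all introns, and 1062 of the 1367 lay above 0. All 8 that rose were among the 388 introns of at least 100000 bp, where 9 passed in all. Without division by the library factor, 636 rose and 1 fell, against 14.6% of all introns, 14.5% higher and 0.0857% lower. The library factor that this leaves in the ratio averaged 0.21 in KO rescue and -0.20 in RBM45 KO on the log2 scale.

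Wwox intron 8 (639386 bp) rose, with scaled ratios of 475 and 452 in KO rescue 1 and 542 and 451 in KO rescue 2, against 267 and 250 in RBM45 KO 1 and 280 and 249 in RBM45 KO 2. The groups did not overlap, and the log2 change was 0.90 ± 0.17 (SE, edgeR adjusted p = 0.0144). Controls were at 284 and 391 in control 1 and 173 and 388 in control 2, all below KO rescue and overlapping with RBM45 KO. The other very long Wwox intron, intron 5 of 190782 bp, had a log2 change of 0.28 ± 0.18 (SE) and did not pass.

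Ext1, a gene for a heparan sulfate polymerase, had the most counts among the introns that rose, between 1939 and 9148 per library in these groups. Its intron 1 (236830 bp, no other gene inside) was at 312 and 315 in KO rescue 1 and 464 and 353 in KO rescue 2, against 217 and 203 in RBM45 KO 1 and 232 and 218 in RBM45 KO 2 (log2 change 0.72 ± 0.15, SE, edgeR adjusted p = 0.04). Controls were at 189, 285, 181 and 297. Gab2, an adaptor in growth factor signalling, rose by 0.74 ± 0.16 (edgeR adjusted p = 0.0365) in its intron 1 (141566 bp, no other gene inside), with 234 to 297 in KO rescue, against 143 to 189 in RBM45 KO. Agap1, an Arf GTPase-activating gene, rose by 0.62 ± 0.13 (edgeR adjusted p = 0.0433) in its intron 1, and intron 9, with a log2 change of 0.41 ± 0.16 (SE), did not pass; the difference between the introns was not tested.

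Mecom, a zinc-finger transcription factor gene, and Ncald, a neuronal calcium sensor gene, rose above RBM45 KO and above controls. Mecom intron 1 (271108 bp) was at 194, 259, 216 and 204 in KO rescue, against 109, 112, 200 and 101 in RBM45 KO (log2 change 0.82 ± 0.16, SE, edgeR adjusted p = 0.0193) and against 73.8, 92.6, 82.7 and 108 in controls (1.22 ± 0.15, SE, edgeR adjusted p = 3.98e-05). One RBM45 KO 2 library, at 200, reached into the KO rescue range, and no control library did. Ncald intron 1 (130809 bp) was at 239, 327, 660 and 249 in KO rescue, against 46.6, 77.1, 182 and 194 in RBM45 KO (log2 change 1.70 ± 0.33, edgeR adjusted p = 0.0193). Its exon-bin counts were only 15 to 46 in KO rescue, 30 to 117 in RBM45 KO and 138 to 219 in controls. Pcdh7, a protocadherin gene, rose by 0.82 in its intron 3 (edgeR adjusted p = 0.0335), with 58.5, 54, 83 and 66.4 in KO rescue, against 35.6, 28.2, 46.3 and 39.7 in RBM45 KO.

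The 3 that fell were Filip1l, Camk1d intron 3 and Clvs1. Camk1d intron 3 was at 7611, 12447, 10002 and 13161 in KO rescue, against 15373, 22763, 20934 and 23342 in RBM45 KO (log2 change -0.95 ± 0.19, SE, edgeR adjusted p = 0.0327). Its introns 1 and 2 had log2 changes of 0.58 and 0.27 and did not pass. The gene rows of CT010467.1 with AY036118, Gm42418 and Gm23935 made up 37.6% of gene counts in KO rescue and 46.3% in RBM45 KO. Their part in this fall of intron 3 was not tested. Filip1l fell by 1.27 and Clvs1, a gene for a clathrin-associated lipid-binding protein, by 1.34 (edgeR adjusted p = 0.0335 and 0.0485).

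**Figure D4:**
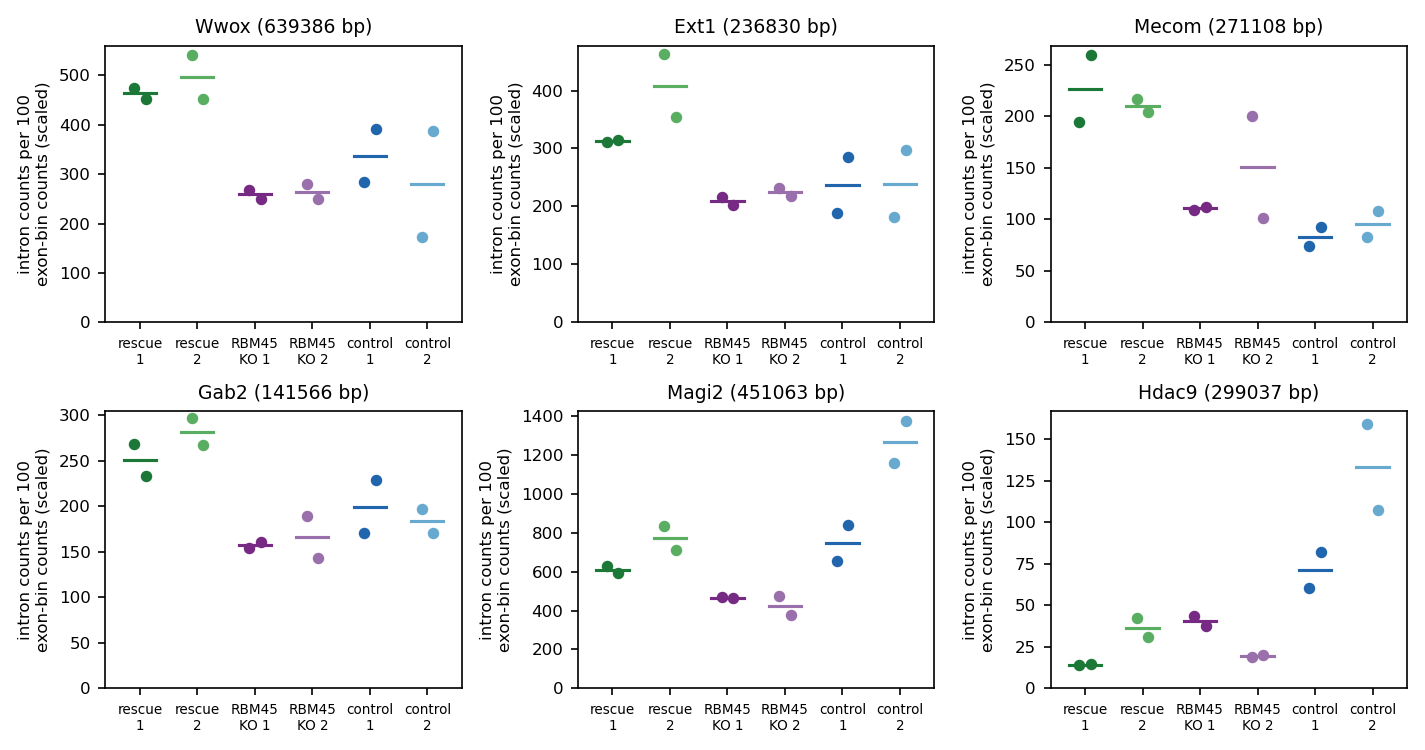
Scaled intron-to-exon ratio (y axis, intron counts per 100 exon-bin counts, linear from 0) of 6 very long introns in the KO rescue, RBM45 KO and control clones (x axis; points are libraries, lines the means of 2). KO rescue lies above RBM45 KO without overlap for Wwox, Ext1 and Gab2, and RBM45 KO lies below the controls for Magi2 and Hdac9.

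None of these calls was made in all 4 pairs of a KO rescue and an RBM45 KO clone, where 0.0156% of all introns were. Without KO rescue 2, or without RBM45 KO 1, 0 passed, and 2 passed without KO rescue 1. Leaving out either control clone, which changes the shared spread and slightly the centring, left the median change at 0.20. Limma called none and DESeq2 1. In the edgeR fit, 344 of the 1367 lay below an unadjusted p of 0.05, against 3272 of all 25658 introns. A fit over libraries, which takes the spread between the 2 libraries of a clone, called 62, and its share over all introns was not worked out.

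The fourth comparison set KO rescue against controls. Of 1367 very long introns, 37 passed, 22 higher and 15 lower in KO rescue, against 0.565% of all introns, 0.249% higher and 0.316% lower, around a median of 0.08, against 0.00 over all introns. That median was 0.004 without control 1, 0.03 without KO rescue 2, 0.12 without KO rescue 1 and 0.14 without control 2. With the plain ratio 43 rose and 4 fell, against 0.783% of all introns, 0.717% higher and 0.0663% lower. The comparison shares the KO rescue and control libraries with the other 2. DESeq2 called 8 and limma 13, and 11 passed without KO rescue 1, 12 without KO rescue 2 and 27 without control 2.

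In all 4 pairs of a KO rescue and a control clone, 13 very long introns were called in the same direction, 10 higher and 3 lower, against 0.0935% of all introns, 0.0624% higher and 0.0312% lower. The 10 lie in Dym, Fmnl2, Macf1, Mecom, Pcdh7, Sgms1 and Shroom3 and, with 3 introns, in Ncald, and the 3 that fell lie in Atp8b1 and, with 2 introns, in Hdac9. Macf1 encodes a protein that links actin to microtubules, and its intron 1 (129604 bp) was at 7.88, 9.70, 10.1 and 8.45 in KO rescue, against 3.96, 3.84, 5.97 and 4.28 in controls, a log2 change of 1.04 ± 0.17 (SE, edgeR adjusted p = 0.00126). RBM45 KO was at 5.3, 5.01, 7.8 and 6.6. Sgms1, a sphingomyelin synthase gene, was the only one of the 13 with no other gene inside its intron (59061 bp), and was at 57.3, 58.6, 56.4 and 59.7 in KO rescue, against 29.7, 26.2, 26.6 and 33.4 in controls, with 31.8, 29.4, 51.5 and 41.4 in RBM45 KO. The change from controls was 0.99 ± 0.18 (SE, edgeR adjusted p = 0.00419), and the second Sgms1 intron, of 50464 bp, had a log2 change of -0.05 and did not pass. Oxr1, an oxidation resistance gene, was higher in KO rescue than in controls in its 3 very long introns, with log2 changes of 1.26, 1.22 and 1.04 (edgeR adjusted p = 0.00167, 0.002 and 0.00255). The 87980 bp Oxr1 intron did not pass with DESeq2 or limma (adjusted p = 0.0853 and 0.0567), nor did that of Sgms1 (adjusted p = 0.290 and 0.0553). Without KO rescue 1 the calls of Macf1, Sgms1 and this Oxr1 intron were lost, without KO rescue 2 those of Macf1 and Sgms1, and without control 2 that of Oxr1.

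Some of the largest differences lay between clones of 1 genotype. Between control 2 and control 1, 26 very long introns passed, 15 higher and 11 lower, against 0.242% of all introns, 0.129% higher and 0.113% lower. Between RBM45 KO 2 and RBM45 KO 1, 15 passed, 7 higher and 8 lower, against 0.105%, 0.0585% higher and 0.0468% lower. Between KO rescue 2 and KO rescue 1, 3 passed, 1 higher and 2 lower, against 0.039%, 0.0117% higher and 0.0273% lower. Whether the clones of a genotype differ by more than those of another was not tested.

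Pde4d differed between clones of 2 genotypes. The gene has several start sites, and its introns 1 to 3 lie between the most upstream exons. Intron 2 (172260 bp, no other gene inside) was at 1.06 and 0.662 in control 2, against 20.4 and 22.1 in control 1 (log2 change -4.71 ± 0.47, SE, edgeR adjusted p = 2.64e-12). It was at 0.627 and 0.866 in RBM45 KO 2, against 16.2 and 16.7 in RBM45 KO 1 (-4.40 ± 0.52, SE, edgeR adjusted p = 4.74e-09). It was at 22.5 and 11.6 in METTL3 KO, against 3.58 and 2.20 in WT (2.38 ± 0.54, SE, edgeR adjusted p = 0.0125), and at 3.44, 2.14, 1.47 and 1.95 in KO rescue. High and low clones were thus found within the controls and within RBM45 KO. The low libraries rest on 2 or 3 intron counts each in control 2 and RBM45 KO 2.

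Intron 1 of Pde4d (205809 bp) showed the same split, with 6.86 and 5.96 in control 2, against 46.4 and 33.7 in control 1, and with 6.27 and 7.21 in RBM45 KO 2, against 41.1 and 28.6 in RBM45 KO 1. Intron 3 (707689 bp) was at 125 and 159 in control 2, against 220 and 251 in control 1, and the log2 change of -0.72 ± 0.20 did not pass (edgeR adjusted p = 0.121). Intron 7 (130896 bp) was at 96.0 and 141 in control 2, against 82.4 and 112 in control 1. Within the 2 called pairs of clones, therefore, the introns upstream of intron 3 differed and no difference was called in introns 3 and 7; the difference between the introns was not tested.

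**Figure D5:**
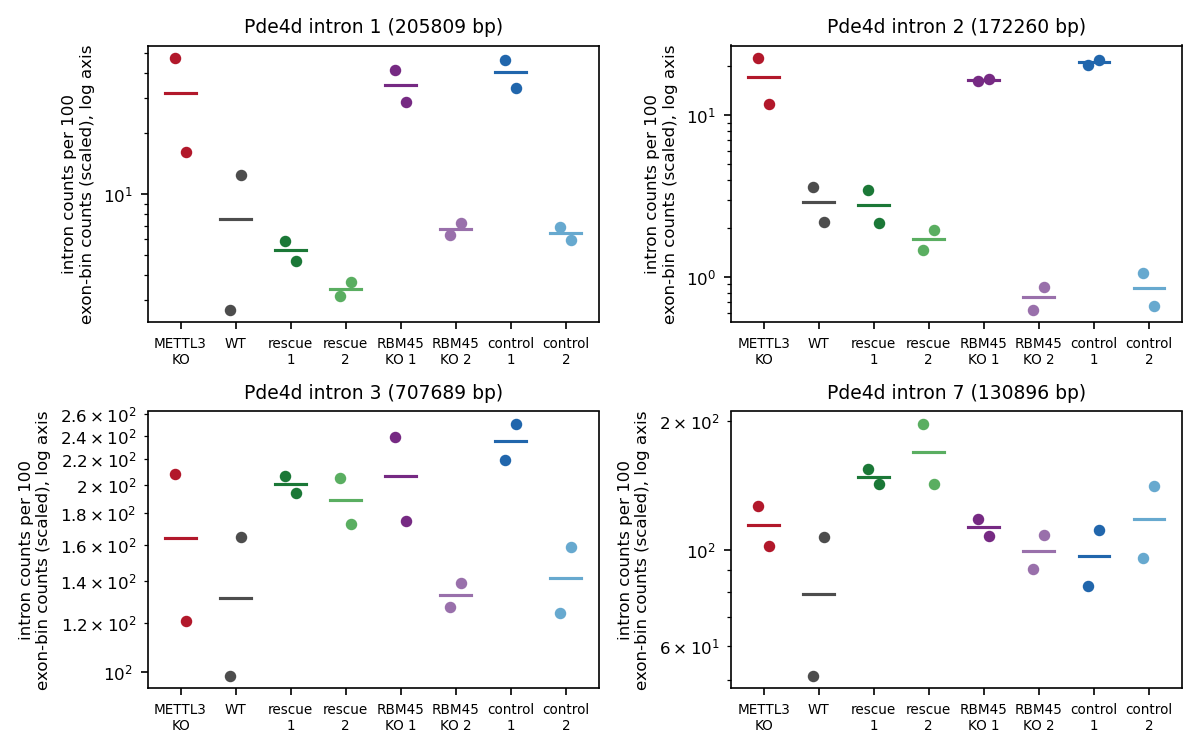
Scaled intron-to-exon ratio (y axis, intron counts per 100 exon-bin counts, log axis) of Pde4d introns 1, 2, 3 and 7 in the 8 groups (x axis; points are libraries, lines the means of 2). In introns 1 and 2 the METTL3 KO, RBM45 KO 1 and control 1 clones lie high and the other groups low, and in introns 3 and 7 the groups lie closer together.

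Other upstream introns were present in some clones and at or near 0 in others. The 532274 bp intron of Rora, a nuclear receptor gene, held 119 and 152 counts in METTL3 KO and 36 and 32 in WT, against 0, 1, 2 and 1 in the 4 control libraries. It held 0 to 1 in RBM45 KO and 0 in all 4 KO rescue libraries. It met the rule on counts only through METTL3 KO, as 1 of the 51 introns with a mean under 10 without their highest group. Its fitted change between controls and WT was -4.90 ± 0.57 (SE, edgeR adjusted p = 7.49e-09), while another very long Rora intron (58083 bp) had a log2 change of -0.47 and did not pass. Shroom3, an actin regulator gene, held 27 and 34 counts in intron 1 in RBM45 KO 2, against 0 and 1 in RBM45 KO 1 (log2 change 5.62 ± 0.78, SE, edgeR adjusted p = 9.14e-07), although its exon-bin counts were alike, at 85 and 87, against 69 and 78. The Arhgap6 intron of 240055 bp was at 664 and 585 in METTL3 KO and 682 and 618 in WT, and at 766 to 830 in KO rescue.

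Between controls and WT, 7 very long introns passed, 3 higher and 4 lower, against 0.0741% of all introns, 0.039% higher and 0.0351% lower, around a median of 0.07, which turned to -0.02 with TMM centring and to -0.009 without control 2 library 2. Those that fell were Rora, Arhgap6, Dis3l2 and Ska2, and those that rose were Cenpp, Dapk1 and an intron listed under C920009B18Rik, Raet1d and Raet1e. Dapk1, a death-associated kinase gene, rose by 3.77 (edgeR adjusted p = 4.61e-06) on intron counts of 37 to 56 in controls and 37 and 28 in WT, with exon-bin counts of 0 to 15 in controls and 37 and 26 in WT. Cenpp, a centromere protein gene, rose by 1.21 and holds exons of the coding genes Aspn, Ecm2, Ogn and Omd. These libraries differ by clone isolation as well as by Cas9, which cannot be told apart.

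Very long introns of the same gene share the exon sum of the ratio, so their changes are not independent. In 269 genes with 2 or more tested, the median standard deviation of the log2 change within a gene was 0.19 between METTL3 KO and WT, 0.14 between RBM45 KO and controls and 0.13 between KO rescue and RBM45 KO. Over all very long introns these standard deviations were 0.62, 0.48 and 0.40. All tested introns of a gene had changes of the same sign in 189, 174 and 191 of the 269 genes. Of all very long introns, 64.5%, 31.8% and 77.7% lay above 0 in these comparisons, so same signs are common even among unrelated introns. The values expected of unrelated introns were not worked out, so closeness within a gene was not tested. No gene had introns called in both directions. Of 123 genes with at least 2 very long introns that hold no other gene, 73 had more counts per kilobase in the most 5′ than in the most 3′ of them, at a median log2 ratio of 0.17.

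Fragile-site genes held 27 tested very long introns, 1 of which fell between RBM45 KO and controls (Magi2), none of which changed between METTL3 KO and WT or between KO rescue and controls, and 1 of which rose between KO rescue and RBM45 KO (Wwox intron 8). Over all very long introns 19 rose and 9 fell between METTL3 KO and WT (2.05% called), 2 rose and 4 fell between RBM45 KO and controls (0.439%), 8 rose and 3 fell between KO rescue and RBM45 KO (0.805%), and 22 rose and 15 fell between KO rescue and controls (2.71%). The median changes of fragile-site genes were 0.20 between METTL3 KO and WT, -0.37 between RBM45 KO and controls and 0.33 between KO rescue and RBM45 KO, against 0.14, -0.12 and 0.20 over all very long introns. Synaptic and adhesion genes held 61, with 1 higher and 1 lower between METTL3 KO and WT, 0 and 2 between RBM45 KO and controls, and 1 and 0 between KO rescue and RBM45 KO. Between KO rescue and controls 1 was higher and 4 were lower. Their medians in the first 3 comparisons were 0.13, -0.35 and 0.31. Of 22 in axon guidance genes none passed in these 3 comparisons, with medians of 0.10, -0.30 and 0.28. RNA-binding protein genes held 26, of which 2 rose between METTL3 KO and WT, both in Celf2, with medians of 0.17, -0.11 and 0.15. Between control 2 and control 1, 2 of these 26 were higher as well, again both in Celf2. Transcription and chromatin regulators held 88, of which 0 passed between METTL3 KO and WT, 1 fell between RBM45 KO and controls and 1 rose between KO rescue and RBM45 KO, with medians of 0.07, -0.12 and 0.17. GTPase and kinase genes held 106, with 3 higher and 1 lower, 1 and 0, and 1 and 1 in these comparisons, and medians of 0.16, -0.12 and 0.16. Between control 2 and control 1, 2 clones of 1 genotype, the medians were 0.23 for fragile-site, 0.29 for synaptic and adhesion and 0.33 for axon guidance genes, against 0.11 over all very long introns. The fragile-site and the synaptic and adhesion lists share the genes Magi2, Dlg2, Cntnap2 and Ctnna3, so their medians are not independent. The Magi2 intron that fell is counted in both, and Magi2 has several very long introns with 1 shared exon sum. Auts2 is in the fragile-site and the transcription and chromatin lists. All lists were chosen with results of these data known and carry no test.

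Ube2e2, a ubiquitin-conjugating enzyme gene, had an intron of 241062 bp at 315 to 408 in KO rescue, against 244 to 370 in RBM45 KO and 237 to 340 in controls, and no change passed. The 3 very long introns of Atg10, an autophagy gene, rested on 2 to 26 exon-bin counts per library and none passed in any comparison. Ide had no intron that met the rule.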

How the data were processed

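Ribodepleted total RNA of 16 libraries was sequenced, 2 in each of 8 groups. The authors deposited raw counts per gene, per exon bin and per intron, made with featureCounts 1.6.3 with fraction overlap 0.1, paired ends and the stranded setting, per the file headers; gene and exon features came from flattened Ensembl 98 annotation of GRCm38 and introns from UCSC refSeq for mm10, per the file headers. HISAT2 2.1.0 is named in the submitters' processing notes. From the deposited counts, exon-bin counts were summed per gene, and 25658 introns with a mean of at least 10 intron and 10 exon-bin counts were tested with edgeR 4.0.16 (R 4.3.3), as an interaction of intron against exon count with group, with offsets centred on each library's median ratio. METTL3 KO, WT and sister clones were compared over libraries (8 residual degrees of freedom), and RBM45 genotypes over sums of 6 clones (3 residual degrees of freedom). p-values were Benjamini-Hochberg adjusted over all introns tested, at a threshold of 0.05. DESeq2 1.42.0 and limma 3.58.1 (on log2 values with a pseudocount of 0.5) were alternatives, as were other centrings, count filters and left-out libraries or clones. The method was tested on simulated data. CPM values were computed from the gene counts with TMM factors. Total gene counts were 7193908 to 18751324 per library, which limits precision in introns with few counts. The members, gene lists and tests were chosen with earlier results of these data known. Named introns were the 5 longest, the 5 with most counts per kilobase, the up to 10 risers and 10 fallers with the smallest p per main comparison, up to 5 in the others, and further introns of those genes. The values of 1 named intron are not reported here.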

Additional observations from a re-analysis of the deposited data

Results flagged for a closer look

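In 5 of 129 groups of 4 libraries tested, 1 library stood far from the other 3, and chance alone marks about 1 in 20 such groups. The scaled ratio of Filip1l was 186138 in KO rescue 1 library 2, against 69061 to 78162 in the other KO rescue libraries. Magi2 intron 1 was at 376 in RBM45 KO 2 library 2, against 465 to 475 in the other RBM45 KO libraries. Mecom intron 1 was at 200.4 in RBM45 KO 2 library 1, against 101 to 112 in the others. Xpo7 was at 19.6 in KO rescue 2 library 2, against 22.3 to 22.6 in the others. The median centred log2 ratio of very long introns was 0.204 in KO rescue 2 library 1, against 0.0456 to 0.0588 in the others.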

How the results depend on the processing

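Counts of very long introns called depended on the tool and the clones. DESeq2 called 1 between METTL3 KO and WT, 0 between RBM45 KO and controls, 1 between KO rescue and RBM45 KO, 8 between KO rescue and controls, 2 between controls and WT, 5 between control 2 and 1, 2 between RBM45 KO 2 and 1 and 0 between KO rescue 2 and 1; limma called 2, 0 and 13 in the RBM45 comparisons in that order and 5 between KO rescue 2 and 1. The plain ratio gave 12, 1, 637, 47, 2, 5, 5 and 0 calls in the same order of the 8 comparisons, and medians of 0.66, -0.31, 0.61, 0.30 and 0.22 in the first 5, -0.25 between RBM45 KO 2 and 1 and 0.19 between KO rescue 2 and 1. A mean of at least 50 counts gave 0, 18 and 24 calls in the RBM45 comparisons, 2 between controls and WT, 15 between control 2 and 1 and 5 between RBM45 KO 2 and 1, and a mean of at least 1 gave 5 between KO rescue 2 and 1. A fit over libraries gave 33, 62 and 89 in the RBM45 comparisons. Leaving out introns that hold exons of another gene left 12, 2, 3, 10, 2, 9, 4 and 1. With exon bins inside the intron left out of the exon sum, 26 passed between METTL3 KO and WT. That fit gave 6, 10 and 39 calls in the RBM45 comparisons and 5 between controls and WT. Introns of at least 100000 bp held 9 calls between METTL3 KO and WT, 18 between KO rescue and controls, 4 between controls and WT, 10 between control 2 and 1 and 7 between RBM45 KO 2 and 1, with medians of 0.30 between KO rescue and RBM45 KO and 0.20 between control 2 and 1. Of the 13 called in all 4 pairs, 1 held no other gene and 7 were of that length, both counted after seeing the data. Leaving out 1 library or clone gave 7 to 29 calls between METTL3 KO and WT, 0 to 40 between RBM45 KO and controls, 0 to 19 between KO rescue and RBM45 KO, 11 to 46 between KO rescue and controls, 2 to 10 between controls and WT, 18 to 24 between control 2 and 1, 5 to 7 between RBM45 KO 2 and 1 and 0 to 2 between KO rescue 2 and 1. The median between controls and WT turned to -0.0194 with TMM centring and to -0.00856 without control 2 library 2, its highest value over the left-out libraries being 0.158 without WT library 2, and the median between control 2 and 1 lay between -0.0396 and 0.211 over the left-out libraries; the cause was not tested. Same-numbered libraries were not treated as paired. Their deviations from the group mean had correlations of -0.116 to 0.192 over 28 pairs of groups. These were taken over introns after division by the library factor, so a shift of a whole library could not show in them. A replicate block gave 29, 7, 31, 15 and 4 calls between METTL3 KO and WT, controls and WT, and the control, RBM45 KO and KO rescue clones. The clone sums carry no library number, so for the RBM45 comparisons a replicate block was added, after seeing the data, to the fit over libraries, and gave 35, 78 and 90 calls. Introns with few exon-bin counts, such as those of Atp8b1 and Arhgap6, are limited by depth.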
